A study of Homo sapiens with 6 samples.

Results

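The BCL2 family decides whether the outer mitochondrial membrane is opened during apoptosis. Pro-survival members (BCL2, BCL-XL, BCL-w and MCL1) hold the pore-forming effectors BAX and BAK in check, and BH3-only proteins such as BIM, BID, NOXA and PUMA either bind and neutralise the pro-survival proteins or engage the effectors. Cancer cells, those of the prostate included, often rely on BCL-XL or MCL1. The members described here were 10 genes listed by symbol and matched to the count table by Entrez identifier: *BCL2*, *BCL2L1* (BCL-XL), *BCL2L2* (BCL-w), *MCL1*, *BAX*, *BID*, *BIK*, *BCL2L11* (BIM), *PMAIP1* (NOXA) and *BBC3* (PUMA). A row was found for 9 of the 10 members among 12703 genes, and *BIK* was not analysed here.

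The counts come from PC3, an androgen-independent line grown from a bone metastasis of prostate cancer. Both groups carry a stably integrated lentivirus: 3 libraries are from cells transduced with Lenti-ORF negative-control particles, and 3 are from cells overexpressing GCNT1, the glycosyltransferase that makes the core 2 branch of *O*-glycans. The methods speak of 3 stable lines in each group, and whether these came from separate transductions is not stated, so that the p-values measure the spread between these samples. The promoter driving *GCNT1* is not given in the sources used here.

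Depth ranged from 11392213 to 13825704 counts per library. *GCNT1* itself had few counts throughout: 9, 13 and 8 in control replicates 1 to 3, and 13, 16 and 35 in overexpressing replicates 1 to 3. It was higher by 0.98 on the log2 scale (SE 0.37, edgeR adjusted p = 0.0362), but not past the test in DESeq2 (adjusted p = 0.0821). Without GCNT1 overexpressing replicate 3 it was 0.49 (edgeR adjusted p = 0.269), and it also lost the test without control replicate 1 (edgeR adjusted p = 0.0920) or control replicate 3 (edgeR adjusted p = 0.0944). The study also checked GCNT1 in overexpressing PC3 cells by immunocytochemistry, real-time PCR and sandwich ELISA, which are not part of these counts. Epithelial keratins were present in all 6 libraries, with *KRT8* at 188 to 230 CPM, that is, counts scaled to a common library total, and *KRT18* at 216 to 261 CPM. *KRT19*, of the same epithelial list, was at 351, 386 and 371 CPM in controls and 247, 215 and 229 CPM with overexpression (log2 fold change -0.68, edgeR adjusted p = 4.27e-07). *EPCAM*, also of that list, was low, at 4.31 to 6.51 CPM in controls and 5.75 to 6.10 CPM with overexpression. The mesenchymal marker *VIM* was at 1087, 1134 and 1161 CPM in controls and 1458, 1343 and 1370 CPM with overexpression (log2 fold change 0.30, edgeR adjusted p = 8.06e-05). The prostate luminal markers *KLK3* and *KLK2* had no row. Of the fibroblast markers, 2 of 4 had a row (*COL1A1* and *COL3A1*), and their summed level was 126 to 178 CPM in controls and 43.0 to 46.7 CPM with overexpression. Of the endothelial markers 1 of 3 had a row, *PECAM1*, at 1.43 to 1.95 CPM in controls and 3.93 to 5.10 CPM with overexpression, and of the leukocyte markers 0 of 3 had one. The part of these marker differences in the results was not tested. In bulk RNA, fewer cells of a kind and less RNA per cell cannot be told apart.

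The 9 members share a BH3 stretch, the short helix through which family proteins bind each other. Its core is written by 6 codons, for leucine, any 3 residues, glycine and aspartate. This pattern, with methionine allowed for the leucine and alanine for the glycine, was searched in the coding sequence of the canonical GENCODE 44 transcript of each member, on the coding strand and in frame. It occurred once in each of the 9 members. The stretches of the 4 pro-survival genes, which moved in both directions, are shown with those of *BCL2L11*, a BH3-only gene that rose, and *BBC3*, whose core departs from the common form. Capitals mark the 6 core codons, and 3 codons are shown on each side in lower case.
BCL2L1: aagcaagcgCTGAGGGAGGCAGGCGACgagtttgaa
MCL1: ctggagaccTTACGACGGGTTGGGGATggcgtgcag
BCL2L2: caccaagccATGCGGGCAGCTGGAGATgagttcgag
BCL2: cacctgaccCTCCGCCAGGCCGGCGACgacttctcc
BCL2L11: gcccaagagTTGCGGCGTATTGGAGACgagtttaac
BBC3: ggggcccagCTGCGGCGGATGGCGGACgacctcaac
The strict form was found in 7 of the 9 members. *BCL2L2* has a methionine codon in place of the leucine codon, and *BBC3* has an alanine codon in place of the glycine codon.

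The question of the comparison is which transcripts differ when GCNT1 is overexpressed in PC3 cells. Among the family, 2 pro-survival genes rose (*BCL2* and *BCL2L1*), 2 fell (*BCL2L2* and *MCL1*), and 2 BH3-only genes rose (*BID* and *BCL2L11*). *BAX*, *PMAIP1* and *BBC3* did not pass the test. Here "rose" and "fell" stand for an edgeR p under 0.05 after Benjamini-Hochberg adjustment across all 12703 genes. Of all genes 57.6% passed it, against 66.7% of the members, which is near that background. By direction, 4 of 9 members were higher, against 28.3% of all genes, and 2 of 9 were lower, against 29.3%. A called gene also exceeds an absolute log2 fold change of 0.58, the threshold used in the study. Called members were *BCL2*, higher, and *BCL2L2*, lower, which is 22.2% of the members against 19.3% of all genes (8.28% higher and 11.1% lower). The median absolute log2 fold change was 0.36 over the members and 0.26 over all genes.

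**Figure D1:**
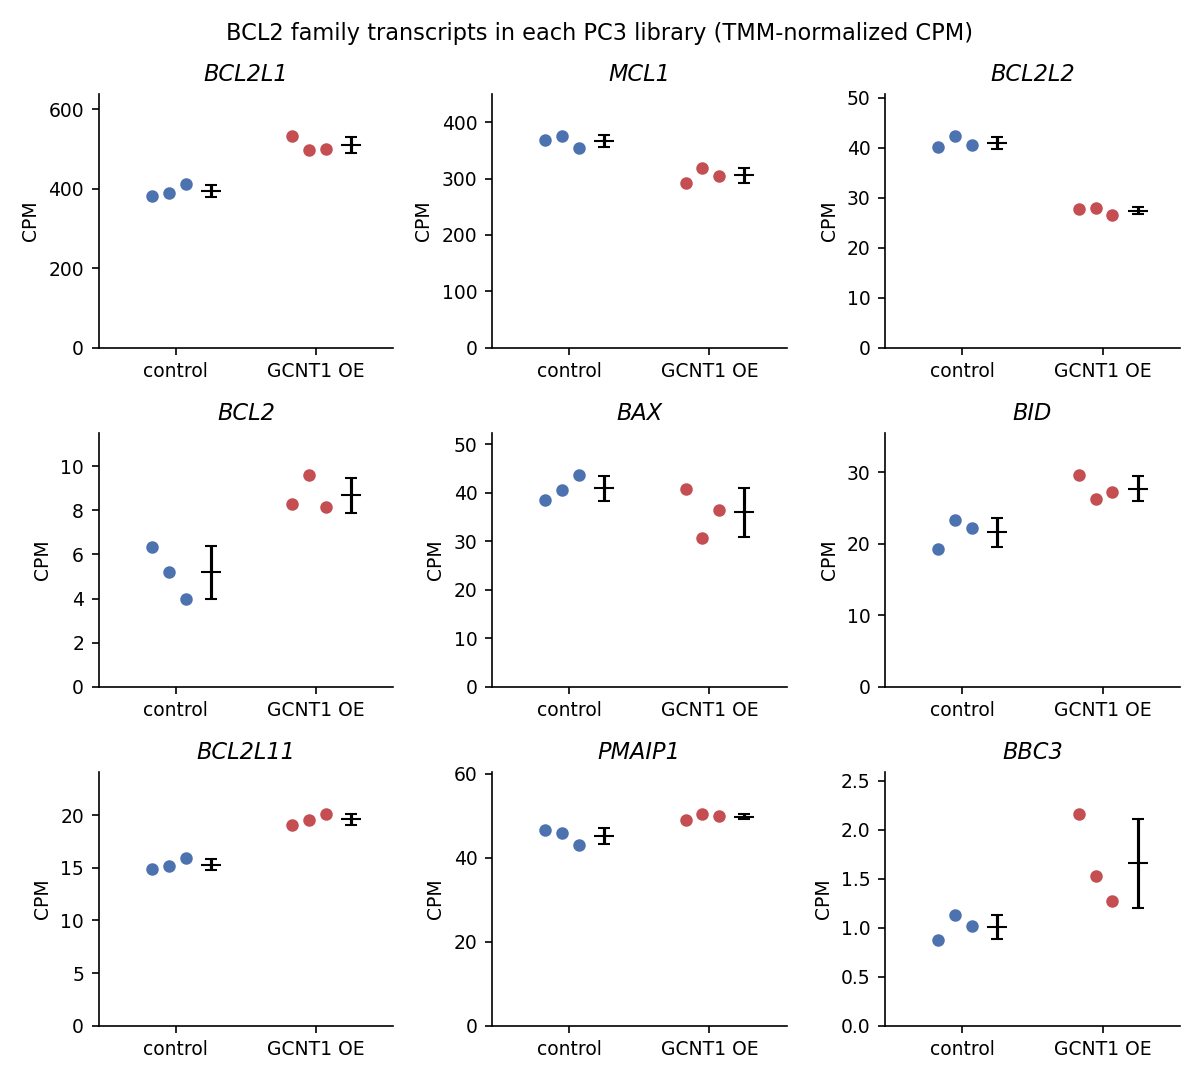
TMM-normalized CPM of each member (y axis, from 0) in the 3 control and 3 GCNT1 overexpressing (GCNT1 OE) libraries; points are libraries, and the bar beside them is the mean ± SD. The groups do not overlap in any panel except that of BAX, where the lowest overexpressing library is at 30.7 CPM and the highest at 40.8 CPM.

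*BCL2L1* encodes BCL-XL, and through an alternative splice site the pro-apoptotic BCL-XS, which gene-level counts cannot separate. The gene spans chr20:31664452-31723963 of hg38 on the minus strand, and its BH3 stretch is in exon 2 of 3 (chr20:31721925-31721960). Its TMM-normalized level was 381, 389 and 412 CPM in control libraries 1 to 3 and 533, 497 and 499 CPM in overexpressing libraries 1 to 3. Every overexpressing library was above every control. The level rose by 29.3%, from 394 ± 15.9 to 510 ± 19.9 CPM (SD, n = 3 each), or 0.37 on the log2 scale (SE 0.05, edgeR adjusted p = 2.11e-05). With 4798 to 7042 counts per library it was the deepest counted member. The 50 analysed genes nearest to it were mostly lower, 39 of them, and their median was -0.19 on the log2 scale.

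*MCL1* encodes a pro-survival protein that is rapidly turned over and is the preferred partner of NOXA. Its locus is chr1:150574558-150579610 on the minus strand, with the BH3 stretch in exon 1 of 3 (chr1:150578868-150578903). The level was 369, 376 and 354 CPM in controls and 293, 319 and 305 CPM with overexpression. The groups did not overlap. *MCL1* fell by 16.6%, from 366 ± 10.99 to 306 ± 13.1 CPM (SD, n = 3 each), or -0.26 on the log2 scale (SE 0.05, edgeR adjusted p = 0.000392). Its 50 nearest analysed genes split evenly, 25 higher and 25 lower. *ADAMTSL4* overlaps *MCL1* on the opposite strand and had 49 to 68 counts per library.

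*BCL2L2* encodes BCL-w. The gene, at chr14:23306833-23311751 on the plus strand, has its BH3 stretch in exon 3 of 4 (chr14:23307894-23307929). The level was 40.2, 42.4 and 40.5 CPM in controls and 27.8, 27.9 and 26.6 CPM with overexpression. The 3 values of each group lay close together, and the groups stood apart. *BCL2L2* fell by 33.2%, from 41.0 ± 1.19 to 27.4 ± 0.74 CPM (SD, n = 3 each), or -0.58 on the log2 scale (SE 0.07, edgeR adjusted p = 6.82e-06). The fold change sits at the threshold of the call: unrounded it is -0.582, and its 95% interval runs from -0.72 to -0.44. Without control replicate 2 it was -0.56 and without GCNT1 overexpressing replicate 3 also -0.56, which ended the call by size but not the adjusted p. Scaled by library size alone it was -0.52, again not called. The read-through gene *BCL2L2-PABPN1* shares its strand and span, so the counts of *BCL2L2* depend on how reads in shared exons were assigned. On the opposite strand it is overlapped by *HOMEZ*, with 80, 80 and 71 counts in controls against 43, 47 and 68 with overexpression, and by *PPP1R3E*, with 66, 76 and 90 against 56, 75 and 94. The part of these reads in the fall of *BCL2L2* was not tested. Of its 50 nearest analysed genes 36 were lower too, with a median of -0.10 on the log2 scale.

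*BCL2* is the founding member of the family. It occupies chr18:63123346-63320090 on the minus strand, and its BH3 stretch is in exon 2 of 3 (chr18:63318352-63318387). Controls gave 80, 65 and 47 counts, and overexpressing libraries 96, 132 and 115. The level was 6.36, 5.22 and 3.98 CPM in controls and 8.30, 9.61 and 8.15 CPM with overexpression, without overlap. *BCL2* rose by 67.0%, from 5.18 ± 1.19 to 8.69 ± 0.80 CPM (SD, n = 3 each), or 0.74 on the log2 scale (SE 0.16, 95% interval 0.40 to 1.08, edgeR adjusted p = 0.00130). Relative to their mean, the controls were more spread than in the other pro-survival genes. The log2 fold change of *BCL2* ran from 0.59 without control replicate 3 to 0.92 without control replicate 1. The call held with any 1 of the 6 libraries left out. Among the 50 analysed genes nearest to *BCL2*, 30 were higher, and the median was 0.07 on the log2 scale.

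*BAX* encodes an effector that forms the pore. The gene spans chr19:48954875-48961798 on the plus strand, with the BH3 stretch in exon 3 of 6 (chr19:48955778-48955813). The level was 38.6, 40.6 and 43.7 CPM in controls and 40.8, 30.7 and 36.4 CPM with overexpression. The groups overlapped, since overexpressing replicate 1 lay above 2 of the 3 controls. Means were 41.0 ± 2.58 and 36.0 ± 5.05 CPM (SD, n = 3 each), and the log2 fold change of -0.19 did not pass (SE 0.09, edgeR adjusted p = 0.0936). Its 95% interval, from -0.39 to 0.01, leaves room for no change and for a fall of up to 0.39 on the log2 scale. Without GCNT1 overexpressing replicate 1 it was -0.29 (edgeR adjusted p = 0.00694), and without GCNT1 overexpressing replicate 2 it was -0.08 (edgeR adjusted p = 0.420).

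*BID* links death receptors to mitochondria, since caspase 8 cleaves the protein into its active form. Its locus is chr22:17734138-17774665 on the minus strand, and exon 4 of 6 holds the BH3 stretch (chr22:17739418-17739453). The level was 19.3, 23.3 and 22.2 CPM in controls and 29.6, 26.2 and 27.2 CPM with overexpression. All overexpressing libraries were above all controls. *BID* rose by 28.05%, from 21.6 ± 2.05 to 27.7 ± 1.76 CPM (SD, n = 3 each), or 0.36 on the log2 scale (SE 0.09, edgeR adjusted p = 0.00336). Of its 50 nearest analysed genes 35 were lower, with a median log2 fold change of -0.15.

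*BCL2L11* encodes BIM, a BH3-only protein that binds all the pro-survival members. At chr2:111120914-111168445 on the plus strand, its BH3 stretch is in exon 3 of 4 (chr2:111150094-111150129). The level was 14.9, 15.2 and 15.9 CPM in controls and 19.1, 19.6 and 20.1 CPM with overexpression. Both groups were narrow and did not overlap. *BCL2L11* rose by 28.2%, from 15.3 ± 0.53 to 19.6 ± 0.52 CPM (SD, n = 3 each), or 0.36 on the log2 scale (SE 0.08, edgeR adjusted p = 0.00192). The long non-coding gene *MIR4435-2HG* overlaps it on the opposite strand and had 115, 123 and 141 counts in controls against 240, 268 and 253 with overexpression. The library kit keeps strand, but whether the counting used it is not given in the sources used here, and the part of these reads in the rise of *BCL2L11* was not tested.

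*PMAIP1* encodes NOXA, which binds mainly MCL1. The gene spans chr18:59899996-59904305 on the plus strand, with the BH3 stretch in exon 2 of 2 (chr18:59902664-59902699). The level was 46.6, 45.9 and 43.0 CPM in controls and 49.1, 50.4 and 49.9 CPM with overexpression. Although the groups did not overlap, the log2 fold change of 0.14 did not pass (SE 0.06, edgeR adjusted p = 0.0601), and its 95% interval ran from 0.01 to 0.27. With library size alone in place of the TMM factors it was 0.20 and passed (edgeR adjusted p = 0.0135).

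*BBC3* encodes PUMA, a strong BH3-only protein. Its locus is chr19:47220824-47232860 on the minus strand, with the BH3 stretch in exon 3 of 4 (chr19:47226582-47226617). Counts were low, at 11, 14 and 12 in controls and 25, 21 and 18 with overexpression. In CPM this was 0.874, 1.12 and 1.02 against 2.16, 1.53 and 1.28, without overlap. The log2 fold change of 0.69 had the widest 95% interval of the members, from 0.08 to 1.30, and just missed the test (SE 0.28, edgeR adjusted p = 0.0504; DESeq2 adjusted p = 0.168). It passed with library size alone (edgeR adjusted p = 0.0349) and among genes with at least 10 counts in every library (edgeR adjusted p = 0.0420). Without GCNT1 overexpressing replicate 1, the highest library, it was 0.48 (edgeR adjusted p = 0.204), and without GCNT1 overexpressing replicate 3 it was 0.85 (edgeR adjusted p = 0.0304). At these counts a difference in *BBC3* is measured with low precision.

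By position of the libraries, 6 members were higher and 2 lower without overlap of the groups, and *BAX* was the exception. Over all genes the groups did not overlap in 62.5%, with 30.9% higher and 31.6% lower. An exact permutation test of 3 libraries against 3 cannot go below p = 0.10, so single genes were judged by the fit across all genes.

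**Figure D2:**
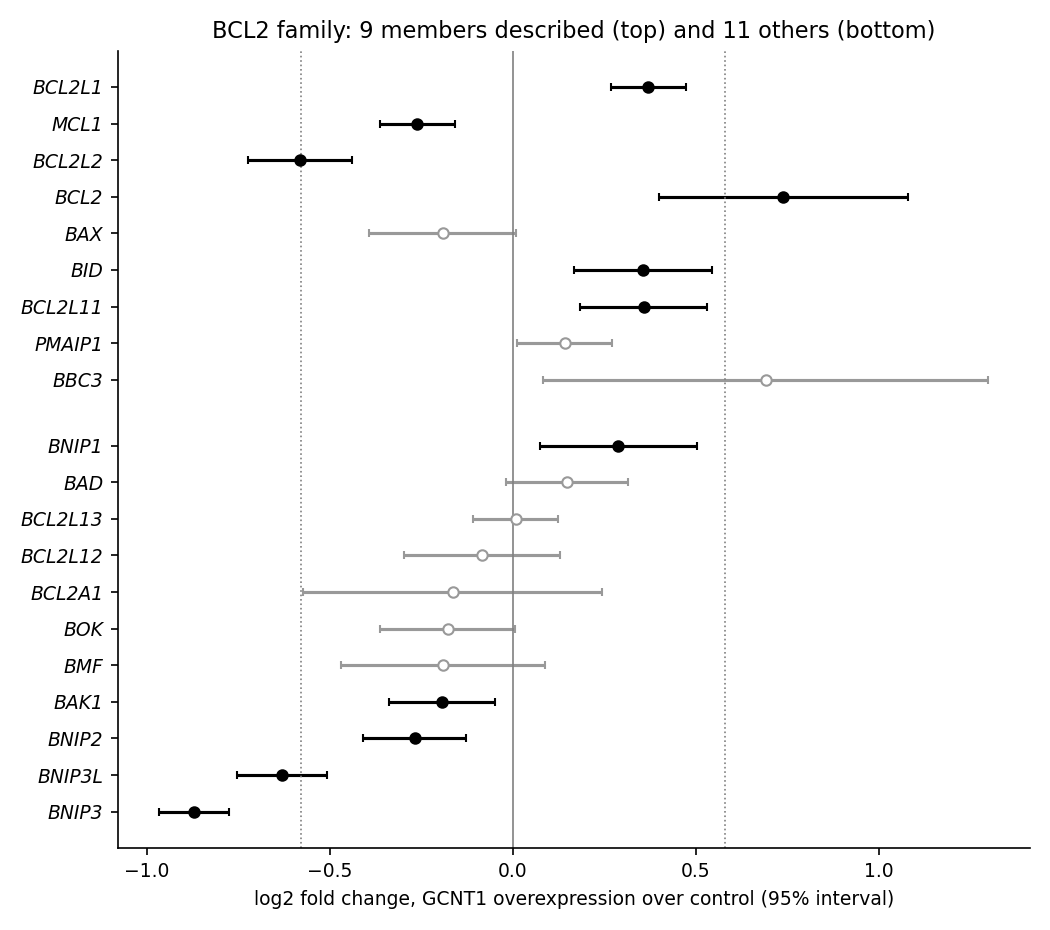
Log2 fold change of GCNT1 overexpression over control (x axis) with its 95% interval for the 9 members (top) and 11 other BCL2 family genes (bottom); filled symbols passed the adjusted p, open grey symbols did not, and dotted lines mark 0.58 in each direction. BCL2L2 lies on the lower line at -0.58, BCL2 is above the upper line at 0.74, and BNIP3 is lowest at -0.87.

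To compare genes with one another, levels were divided by the summed length of all annotated exons of each gene (CPM per kilobase). In controls *BCL2L1* was highest at 93.9 ± 3.79, followed by *MCL1* at 58.9 ± 1.77, *PMAIP1* at 20.7 ± 0.88, *BAX* at 15.8 ± 1.00, *BCL2L2* at 8.48 ± 0.25, *BID* at 4.88 ± 0.46, *BCL2L11* at 2.27 ± 0.08, *BCL2* at 0.41 ± 0.09 and *BBC3* at 0.32 ± 0.04 CPM per kilobase (SD, n = 3). Neighbours in this order did not overlap between libraries, except for *BCL2* and *BBC3*. With overexpression the order was the same apart from *BID*, which at 6.26 ± 0.40 stood above *BCL2L2* at 5.67 ± 0.15 CPM per kilobase, a ratio of 1.11 without overlap. The order of *PMAIP1* and *BAX* depends on the length used: with the longest transcript of each gene *BAX* was the higher in controls, at 30.2 against 23.8 CPM per kilobase.

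**Figure D3:**
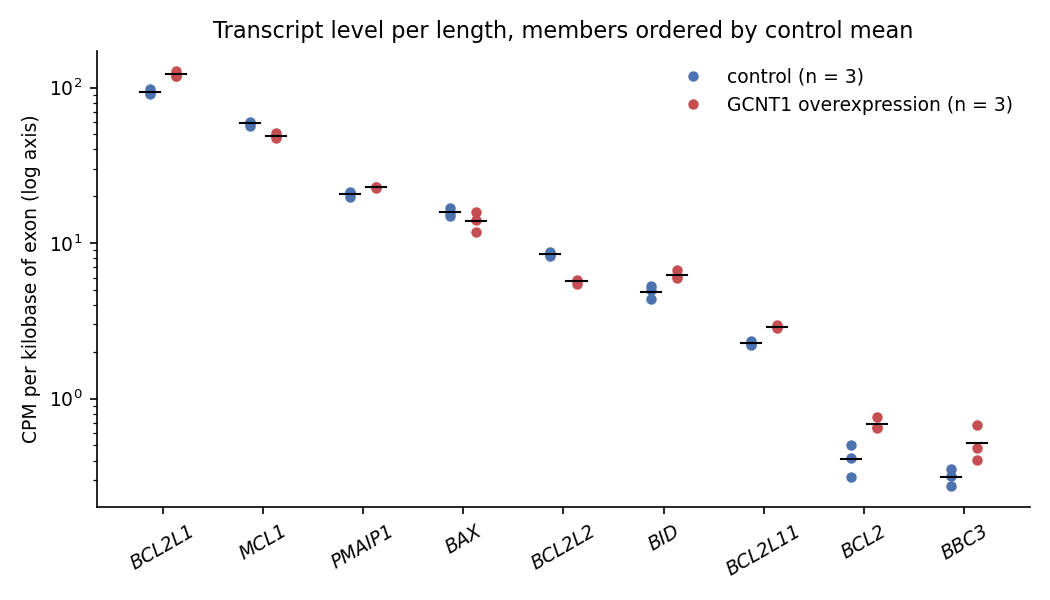
Level per length of the 9 members (y axis, CPM per kilobase of exon, log scale) in control and GCNT1 overexpressing libraries; points are libraries and short lines are group means. BCL2L1 and MCL1 lie highest, at 93.9 and 58.9 in controls, while BCL2 and BBC3 lie lowest, at 0.41 and 0.32.

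Among the pro-survival transcripts, *BCL2L1* took a larger part with overexpression and *MCL1* and *BCL2L2* a smaller one. As a share of the summed CPM per kilobase of the 4 pro-survival genes, *BCL2L1* made up 57.1%, 57.1% and 59.9% in controls and 70.4%, 67.2% and 68.3% with overexpression. *MCL1* made up 37.3%, 37.2% and 34.8% in controls and 26.1%, 29.1% and 28.2% with overexpression. *BCL2L2* went from 5.25% ± 0.14 to 3.20% ± 0.06, and *BCL2* from 0.25% ± 0.06 to 0.39% ± 0.04 (SD, n = 3 each). The sum itself was 162 ± 2.46 in controls and 177 ± 3.21 CPM per kilobase with overexpression, and that of the 4 BH3-only genes *BID*, *BCL2L11*, *PMAIP1* and *BBC3* was 28.1 ± 0.75 and 32.5 ± 0.17 CPM per kilobase (SD, n = 3 each). These shares and sums are descriptions without a test.

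Ratios of 2 members within a library do not depend on the scaling factor. There were 1.03, 1.04 and 1.16 *BCL2L1* counts for each *MCL1* count in the controls and 1.82, 1.56 and 1.64 with overexpression. The ratio of *BAX* to *BCL2* counts was 6.08, 7.78 and 11 in controls and 4.92, 3.20 and 4.47 with overexpression. For *PMAIP1* to *MCL1* it was 0.126, 0.122 and 0.121 in controls and 0.168, 0.158 and 0.164 with overexpression. For *BCL2L11* to *MCL1* it was 0.0403, 0.0404 and 0.0449 in controls and 0.0652, 0.0614 and 0.0660 with overexpression. In all 4 ratios the groups did not overlap, and no test was applied to them.

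Among 16 further BCL2 family genes 11 had a row, of which 1 rose and 4 fell, so that 5 of 11 passed against 57.6% of all genes. The falls were *BNIP3* and *BNIP3L*, whose products are mitophagy receptors with a weak BH3 domain, together with *BNIP2* and the effector gene *BAK1*. *BNIP3* was at 303, 301 and 306 CPM in controls and 163, 169 and 166 CPM with overexpression, a fall by 0.87 on the log2 scale (SE 0.04, edgeR adjusted p = 2.97e-09). *BNIP3L* fell by 0.63 on the log2 scale, from 209 ± 5.38 to 135 ± 9.90 CPM (SD, n = 3 each), with an edgeR adjusted p of 9.24e-07. These 2 genes were the only called ones of the 11, against 19.3% of all genes. With library size alone in place of TMM 1 of them was called. *BAK1*, the effector paired with *BAX*, went from 54.1 ± 2.52 to 47.3 ± 3.10 CPM (SD, n = 3 each; log2 fold change -0.19, edgeR adjusted p = 0.0240). It did not pass with library size alone (edgeR adjusted p = 0.0885), under DESeq2 (adjusted p = 0.0507), with the replicate number blocked (edgeR adjusted p = 0.0633) or without control replicate 2 or 3 or GCNT1 overexpressing replicate 2 or 3 (edgeR adjusted p = 0.0591 to 0.119). *BNIP1* had a log2 fold change of 0.29 (edgeR adjusted p = 0.0246) and did not pass under DESeq2 (adjusted p = 0.0860) or without control replicate 1 or 2 or GCNT1 overexpressing replicate 3 (edgeR adjusted p = 0.0588 to 0.131). *BAD*, *BCL2L13*, *BCL2L12*, *BCL2A1*, *BOK* and *BMF* did not pass, with log2 fold changes from -0.19 to 0.15. *BAD* passed with library size alone (edgeR adjusted p = 0.0316) and without control replicate 3 (edgeR adjusted p = 0.0240), and *BOK* without control replicate 2 (edgeR adjusted p = 0.0498) or GCNT1 overexpressing replicate 1 (edgeR adjusted p = 0.0378). The median over the 11 genes was -0.18, against 0.36 over the 9 members and 0.00 over all genes.

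In the list of apoptosome and caspase genes, 7 of 16 passed, 5 higher and 2 lower, against 57.6% of all genes. With 1 of 16 called, against 19.3%, the list was not above the background. The called one was *CASP10*, an initiator caspase of death receptors, at 3.18, 2.81 and 5.33 CPM in controls and 8.12, 8.01 and 8.65 CPM with overexpression (log2 fold change 1.14, SE 0.19, edgeR adjusted p = 0.000175). The falls, named after their values were seen, were *CYCS*, which encodes cytochrome c, at -0.26 (edgeR adjusted p = 0.000786) and the apoptosome caspase *CASP9* at -0.30 on the log2 scale (edgeR adjusted p = 0.00825). The other rises, also named after their values were seen, included *CASP8* at 0.53 (edgeR adjusted p = 1.74e-05) and *AIFM1* at 0.49 (edgeR adjusted p = 2.65e-05). The rest were *CASP2* at 0.18 (edgeR adjusted p = 0.0131) and *DIABLO* at 0.17 on the log2 scale (edgeR adjusted p = 0.0130). Of 18 genes whose products bind, modify or carry BCL2 proteins, 17 had a row, and 12 passed, 6 in each direction, against 57.6% of all genes. None of the 17 was called by edgeR, DESeq2 or limma-voom, against 19.3% of all genes in edgeR. An unadjusted edgeR p under 0.05 was found for 13 of the 17 and for 7910 of all 12703 genes. With library size alone 1 of the 17 was called, and so was 1 without control replicate 1.

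The inhibitors of apoptosis had 6 of 9 genes with a row, and all 6 passed, 3 in each direction, against 57.6% of all genes. Of these 6 only 1 was called, against 19.3% of all genes. *BIRC3*, which encodes cIAP2 and is a known NF-kB target, was called: it rose from 8.47 ± 1.17 to 17.9 ± 4.10 CPM (SD, n = 3 each; log2 fold change 1.08, SE 0.16, edgeR adjusted p = 7.56e-05). *XIAP* and *CFLAR*, the caspase 8 inhibitor, were higher by 0.31 and 0.42 on the log2 scale. *BIRC2*, *BIRC5* and *BIRC6* fell by 0.41, 0.45 and 0.44 on the log2 scale. Apart from *BIRC3* these genes were named after their values were seen.

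Of 17 death receptor pathway genes 12 had a row, with 5 higher (28.3% of all genes) and 1 lower (29.3% of all genes), so that 6 of 12 passed against 57.6% of all genes. *FAS*, the receptor of FAS ligand, rose from 4.58 ± 0.46 to 9.45 ± 0.65 CPM (SD, n = 3 each; log2 fold change 1.05, SE 0.13, edgeR adjusted p = 1.45e-05). *TNFRSF10A*, a TRAIL receptor, rose from 13.98 ± 1.59 to 23.5 ± 0.97 CPM (log2 fold change 0.76, edgeR adjusted p = 1.46e-05), and the adaptor *TRAF2* from 18.7 ± 1.90 to 29.95 ± 2.80 CPM (log2 fold change 0.67, edgeR adjusted p = 4.68e-05). *TNFRSF21*, which encodes death receptor DR6, fell from 376 ± 15.9 to 206 ± 12.3 CPM (log2 fold change -0.86, edgeR adjusted p = 2.34e-08). These 4 of 12 genes were the called ones, against 19.3% of all genes.

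**Figure D4:**
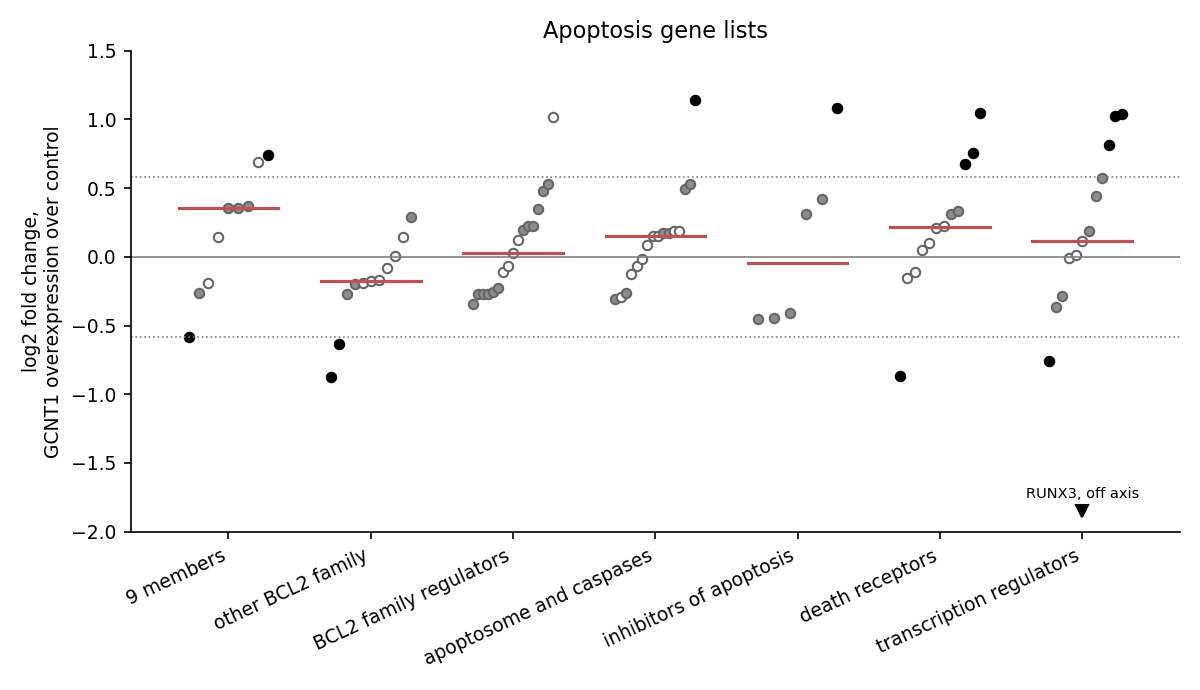
Log2 fold change of GCNT1 overexpression over control (y axis) for each analysed gene of the 9 members and 6 apoptosis gene lists (x axis); black points are called genes, grey points passed the adjusted p alone, open points did not pass, red lines are list medians and dotted lines mark 0.58 in each direction. The medians lie between -0.18 and 0.36, and the arrowhead stands for RUNX3, with 0 or 1 counts in the overexpressing libraries, beyond the axis.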

How the data were processed

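Single reads from stranded mRNA libraries were trimmed (Cutadapt), aligned to hg38 (HISAT2) and assigned to genes (featureCounts) by the authors, who deposited raw counts per gene, 1 column per library. The annotation, the strand setting and the filter on low counts are not given in the sources used here. Symbols and positions came from RefSeq (GRCh38.p14, 12661 of 12703 identifiers matched), and strand, exon lengths, overlaps and coding sequences from GENCODE 44.

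The groups were compared by the quasi-likelihood test of edgeR 4.0.16 in R 4.3.3, after filterByExpr and with TMM factors, and p-values were adjusted by Benjamini-Hochberg over 12703 genes. SEs and 95% intervals were taken from the quasi-likelihood statistic. Libraries of a group differed beyond sampling noise (chi-square per degree of freedom 1.65 to 5.61). Neighbours were the 25 analysed genes on each side, and near a chromosome end the window was shifted to keep 50. Alternatives were DESeq2 1.42.0, limma-voom (limma 3.58.1), RLE or no scaling factors, filters of none or 10 counts per library, a block on the replicate number, glmTreat, and fits leaving out 1 library. The fits were tested on simulated data with 200 of 12703 genes changed by 1.5 on the log2 scale. There edgeR recovered 95% of the changed genes, and 0.52% of its calls were false. Changes as broad as those here, or as small as those of the members, were not simulated. Genes named were all family genes, up to 5 called genes of each other list without overlap of the groups, and *GCNT1*, besides genes said to be named after their values were seen and those that overlap a member or mark a cell type. Some genes and a gene list are not reported here. The members and lists were chosen with earlier results of these data known. Values were summarised in Python 3.11.15.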

Additional observations from a re-analysis of the deposited data

How the results depend on the processing

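No alternative turned the direction of a member, and under limma-voom, DESeq2, RLE factors and the replicate block the same 6 members passed the adjusted p and *BCL2* and *BCL2L2* were called. The filter removed no gene, so leaving it out changed nothing by construction. The block brought the calls over all genes from 2457 to 2423, and 2414 of these were shared. Same-numbered libraries deviated from their group means with correlations of -0.27, -0.00 and -0.11, so the numbers were not taken as pairs. The split of called genes was 42.8% higher, and 51.1% with library size alone.

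glmTreat, which tests against a log2 fold change of 0.58, called 1392 genes and 0 members, and 0 members had an unadjusted p under 0.05 there. By its construction it asks for more than a difference from 0, and the log2 fold changes were those of the main test: 0.74 for *BCL2*, 0.37 for *BCL2L1*, -0.58 for *BCL2L2*, -0.26 for *MCL1*, 0.36 for *BID* and 0.36 for *BCL2L11*. It called 2 death receptor genes and 1 further BCL2 family gene.

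With library size alone 8 of 9 members passed, with *PMAIP1* at 0.20 and *BBC3* at 0.75, against 57.6% of all genes in the main fit. The called members were *BCL2* and *BBC3*, and over all genes 2513 of 12703 were called. Beside that share, the called genes of the lists were 2 of 16 for the apoptosome and caspases, 1 of 17 for regulators of BCL2 proteins and 1 of 11 for the further BCL2 family. With at least 10 counts in every library *BBC3* was at 0.69 and passed. The cause of these changes was not tested.

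With each library left out, 2409 to 2511 genes and 1 to 2 members were called and 6 to 7 members passed. *BAX* ran from -0.286 to -0.0831 and *BBC3* from 0.48 to 0.85. The regulators ran from 0 to 1 called genes. *BCL2L12* ran from -0.183 to 0.00909 and *BCL2L13* from -0.0135 to 0.0408, changing sign without control replicate 3 (0.00909 and -0.0135) and, for *BCL2L13*, without GCNT1 overexpressing replicate 2 (-0.00331).

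With the longest transcript as length, the control and overexpressing levels in CPM per kilobase were 121 and 157 for *BCL2L1*, 80.5 and 67.2 for *MCL1*, 30.2 and 26.5 for *BAX*, 23.8 and 26.2 for *PMAIP1*, 11.5 and 7.69 for *BCL2L2*, 8.65 and 11.1 for *BID*, 2.96 and 3.79 for *BCL2L11*, 0.69 and 1.16 for *BCL2* and 0.54 and 0.90 for *BBC3*. At 8 to 35 counts per library, depth limits the precision of *BBC3* and *GCNT1*.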

Other observations

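Of 14 transcription factors and cofactors known to act on BH3-only genes, 13 had a row, and 10 passed the adjusted p in edgeR, 6 higher and 4 lower, against 57.6% of all genes. The 5 called ones, against 19.3% of all genes, went both ways. *MYC* rose from 91.6 ± 5.87 to 189 ± 12.5 CPM (SD, n = 3 each; log2 fold change 1.04, SE 0.06, edgeR adjusted p = 2.05e-08). *ATF3*, a stress-induced factor, was at 7.95, 5.94 and 5.50 CPM in controls and 11.8, 13.3 and 14.3 CPM with overexpression (log2 fold change 1.03, SE 0.14, edgeR adjusted p = 3.02e-05). *TRIB3*, a pseudokinase gene of the ATF4 and CHOP response, rose by 0.82 on the log2 scale (SE 0.06, edgeR adjusted p = 6.61e-08). *FOXO3*, a known activator of *BCL2L11* and *BBC3*, fell from 52.8 ± 1.91 to 31.2 ± 1.76 CPM (SD, n = 3 each; log2 fold change -0.76, SE 0.07, edgeR adjusted p = 6.93e-07). *RUNX3* had 76, 78 and 76 counts in controls against 1, 0 and 0 in the overexpressing libraries, which is at least 27.1-fold lower when the overexpressing libraries are set at a floor of 3 counts per library. The median log2 fold change of the list was 0.11.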
